A study of Sus scrofa with 11 samples.

Results

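The genes described here are the zinc finger and BTB genes of pig muscle, taken as every gene ID whose symbol starts with ZNF, ZBTB, ZFP, ZSCAN or ZKSCAN. Of 25322 gene IDs counted in the series, 11804 had a symbol and 223 of those had such a prefix. The 132 that reached at least 1 CPM (reads of a gene scaled to a common library total) in 4 or more of the 11 pigs are the members, 104 of them ZNF, 16 ZBTB, 9 ZFP and 3 ZSCAN genes, and 0 of the 4 ZKSCAN genes reached that level. RNA was sequenced from the longissimus lumborum, a back muscle, of 11 female pigs aged 23 weeks. In the 7 pigs of the group called fibre1, over 17% of the fibres were type I (slow, oxidative) and under 70% were type IIB (fast, glycolytic). In the 4 pigs of the group called fibre2B, under 8% were type I and over 70% were type IIB. The labels name no breed, treatment or genotype, and each replicate is a different animal.

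Most of these genes encode proteins with C2H2 zinc fingers, short loops held by a zinc ion that together read a DNA sequence. The part beside the fingers decides what follows: a BTB domain pairs proteins and recruits corepressors such as NCOR1, a KRAB domain recruits TRIM28 and heterochromatin enzymes, and a SCAN domain mediates pairing between family members. A symbol prefix does not define a protein family, so the members also include proteins that bind RNA or ribosomes, and the roles given below are known from human or mouse proteins. In whole muscle, fewer cells of a type and less RNA per cell cannot be told apart.

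Zinc finger and BTB genes differed between the groups in both directions. With edgeR's quasi-likelihood test over all 11329 genes tested, 11 of the 132 members were higher and 11 lower in fibre1 at an adjusted p under 0.05, which is 8.33% of the members in each direction. Of all genes tested, 4.38% were called higher and 4.63% lower, and of the 10002 genes that met the same CPM level the shares were 4.89% and 4.98%. With all 11 pigs both member shares were above these, and no test of that excess was made. At an unadjusted p under 0.05 in the same edgeR fit were 54 of the 132 members and 3272 of the 11329 genes tested. In 9 of 26 other fits the share of members called lower was under the share of all genes called lower, for example 0.758% against 1.86% without fibre1 pig 1 and 1.52% against 1.79% with the share of the top 10 genes as a covariate. Without any scaling factors beyond library size, 2 members were higher and 1 lower (1.52% and 0.758%), beside 0.468% and 0.918% of all genes. Without fibre2B pig 14, the smallest library, edgeR called 0 members in either direction and 0 of all genes. The spread of the fold changes was also wider: the interquartile range of the members ran from -0.43 to 0.50 on the log2 scale (fibre1 minus fibre2B), against -0.31 to 0.32 for all genes at that CPM level. The medians were 0.05 for the members and 0.02 for those genes. Members were also less abundant, with a median of the mean CPM of 3.88 against 8.52 for those genes. The part of abundance in the wider spread was not tested. Summed over the 132 members, TMM-scaled expression was 1546 ± 121 CPM in fibre1 pigs (1411 to 1733) and 1304 ± 72.1 CPM in fibre2B pigs (1210 to 1383). That separation depended on the scaling: with library size only, the sums were 1473 ± 199 CPM in fibre1 pigs (1159 to 1732) and 1432 ± 63.3 CPM in fibre2B pigs (1362 to 1514), and the groups overlapped. With upper-quartile factors the sums overlapped too (1382 to 1653 CPM in fibre1 pigs, 1221 to 1431 CPM in fibre2B pigs), and with RLE factors they did not. ZNF106, ZNF358, ZNF768, ZBTB47 and ZFP36L1 contributed the most counts to the sum over the 132 members.

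**Figure D1:**
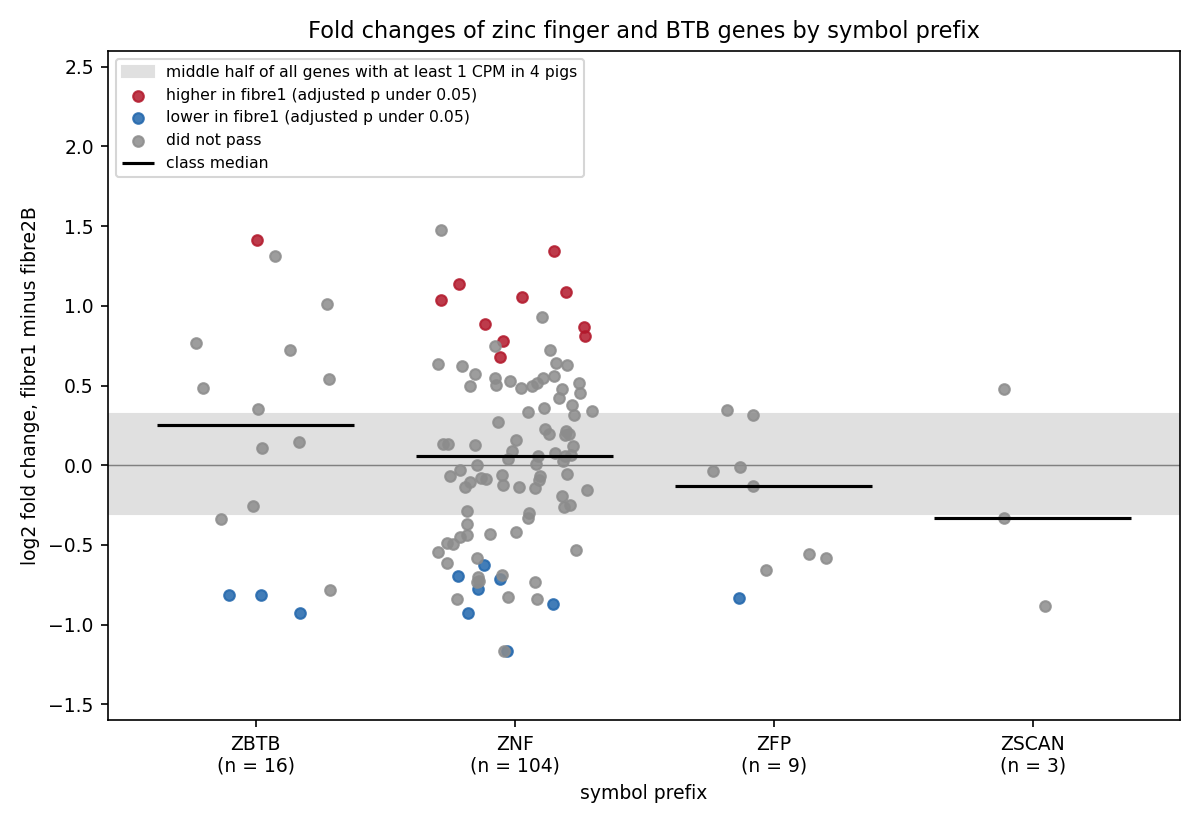
Each point is the log2 fold change (fibre1 minus fibre2B) of 1 gene, grouped by symbol prefix, with black lines at the class medians and a grey band over the interquartile range of all genes with at least 1 CPM in 4 pigs. Points that passed the test lie on both sides in the ZBTB and ZNF columns, with ZBTB47 at 1.41 the highest of those that passed.

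Among the genes with the ZBTB prefix, 1 of 16 was higher (6.25%) and 3 were lower (18.8%) in fibre1, and 12 did not pass, where 4.89% and 4.98% of all genes at the same CPM level were called higher and lower. The class median log2 fold change was 0.25, with 10 positive and 6 negative values.

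ZBTB47 (ENSSSCG00000030065), a BTB zinc finger gene, had 58.7 CPM in the lowest fibre1 pig, a median of 82.5 and 114 in the highest. The fibre2B pigs had 41.0, 29.0, 28.6 and 28.3 CPM. Every fibre1 pig lay above every fibre2B pig, and pig 10 was the highest of the fibre2B pigs by a wide gap. Fibre1 averaged 84.4 ± 21.7 CPM over 7 pigs and fibre2B 31.7 ± 6.18 CPM over 4 pigs (mean ± SD). On the log2 scale the difference was 1.41 ± 0.21 (estimate ± SE, with edgeR's adjusted p = 0.014). Without fibre2B pig 14 the fold change was 1.38 and the adjusted p 0.057, and leaving out any other single pig kept the call.

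ZBTB33 encodes Kaiso, which binds methylated CpG pairs and represses genes. It ran from 4.45 to 6.76 CPM in fibre1 with a median of 6.25, and the fibre2B pigs had 9.63, 12.2, 11.2 and 9.22 CPM. The groups did not overlap. The log2 fold change was -0.81 ± 0.15 (edgeR adjusted p = 0.016), and of the 11 fits that each left out a pig, the call was lost in that without pig 14 (-0.77, adjusted p = 0.057).

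ZBTB11, linked in human cells to the control of genes for mitochondrial respiration, averaged 8.63 ± 2.66 CPM in fibre1 pigs, against 15.1 ± 1.78 CPM in fibre2B pigs. It fell in fibre1 by 0.81 ± 0.21 on the log2 scale (edgeR adjusted p = 0.033). Its highest fibre1 pig, pig 7 at 13.3 CPM, lay just above its lowest fibre2B pig, pig 16 at 13.1 CPM. ZBTB8A was a low-count gene, with 1.176 ± 0.38 CPM in fibre1 pigs, against 2.26 ± 0.49 CPM in fibre2B pigs (log2 fold change -0.93 ± 0.27, edgeR adjusted p = 0.049). ZBTB11 kept its call in 3 of the 11 leave-outs and ZBTB8A in 2, with adjusted p from 0.054 to 0.087 and from 0.058 to 0.134 where it was lost. ZBTB8OS lies next to ZBTB8A in the RefSeq annotation and is named for that position: it encodes archease, a cofactor of the tRNA ligase, with neither a BTB domain nor zinc fingers. It had a log2 fold change of 0.15 (adjusted p = 0.535).

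**Figure D2:**
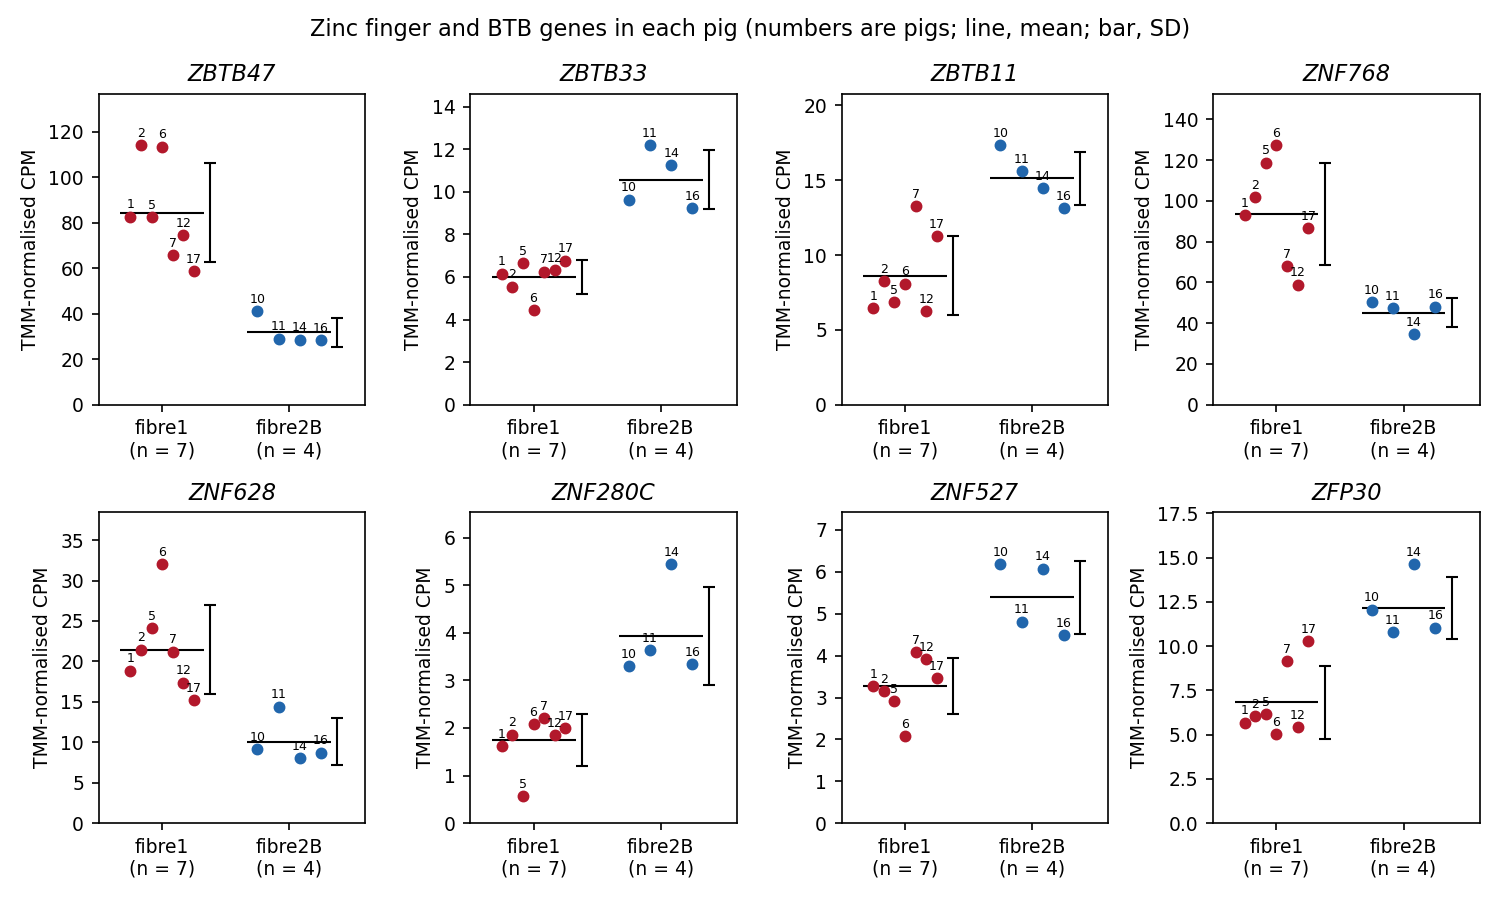
TMM-normalised CPM of 8 genes in each pig, fibre1 left and fibre2B right, with pig numbers, group means as lines and SD as bars. ZBTB47, ZNF768 and ZNF628 show no overlap with fibre1 above, ZBTB33, ZNF280C, ZNF527 and ZFP30 show none with fibre2B above, and in ZBTB11 fibre1 pig 7 reaches the fibre2B range.

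The other ZBTB genes had positive and negative values that did not pass in the main edgeR fit (all 11 pigs, TMM factors, no covariate). DESeq2 called ZBTB7B, ZBTB12, ZBTB17 and ZBTB44. Other edgeR fits also called some of them. With 1 surrogate variable these were ZBTB7B, ZBTB10, ZBTB17 and ZBTB44, and with the share of the top 10 genes as a covariate ZBTB10 and ZBTB44. ZBTB17 was called with the 1 CPM filter and without fibre1 pig 7 or 12, and ZBTB7B without fibre1 pig 5. In simulated data 15.3% of DESeq2 calls were false, against 5.04% of edgeR calls. There 200 of 11329 genes were changed, and the false share depends on that number, so these shares do not carry over to the calls here. ZBTB7B, which encodes ThPOK, a lineage factor of CD4 T cells, had 1.31 ± 0.42 (1.69 CPM in fibre1 against 0.679 CPM in fibre2B on average, edgeR adjusted p = 0.063). ZBTB12 had 1.01 ± 0.35 (adjusted p = 0.079). ZBTB17, which encodes the MYC partner MIZ1, had 0.72 ± 0.22 (adjusted p = 0.054), and ZBTB7A, a repressor of fetal globin genes, had 0.76 ± 0.33 (adjusted p = 0.148). On the other side ZBTB10 had -0.78 ± 0.35 (adjusted p = 0.163). Its pigs were uneven, from 11.6 to 39.2 CPM in fibre1, against 29.0, 63.8, 24.5 and 21.9 CPM in fibre2B. The remaining members of the class, ZBTB24, ZBTB1, ZBTB2, ZBTB8OS, ZBTB48, ZBTB40 and ZBTB44, had log2 fold changes from -0.33 to 0.54.

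Among the ZNF genes, 10 of 104 were higher (9.62%) and 7 lower (6.73%) in fibre1, and 87 did not pass, beside the 4.89% and 4.98% of all genes at that CPM level. The class median was 0.06, with 57 positive and 47 negative values.

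The genes higher in fibre1 were led by ZNF865 (1.34 ± 0.33), ZNF212 (1.14 ± 0.30), ZNF628 (1.09 ± 0.22), ZNF768 (1.05 ± 0.21) and ZNF777 (1.04 ± 0.24). ZNF768 binds a family of ancient repeat elements in human cells, and ZNF212 and ZNF777 carry KRAB domains. ZNF768 had 58.9 CPM in the lowest fibre1 pig, a median of 93.0 and 127 in the highest. The fibre2B pigs had 50.2, 47.3, 34.5 and 48.1 CPM. The groups did not overlap (means 93.4 ± 24.98 CPM in fibre1 against 45.0 ± 7.14 CPM in fibre2B, edgeR adjusted p = 0.018).

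ZNF628 ran from 15.2 to 32.1 CPM in fibre1 with a median of 21.2, and the fibre2B pigs had 9.17, 14.4, 8.00 and 8.70 CPM (edgeR adjusted p = 0.019). Fibre2B pig 11 came within 1 CPM of the lowest fibre1 pig, pig 17. ZNF865 had 3.38 ± 0.97 CPM in fibre1 pigs, against 1.31 ± 0.59 CPM in fibre2B pigs (adjusted p = 0.030), with fibre2B pig 14 lowest at 0.454 CPM. ZNF777 had 9.13 ± 2.78 CPM in fibre1 against 4.43 ± 1.12 CPM in fibre2B (adjusted p = 0.026) and ZNF212 1.91 ± 0.54 CPM in fibre1 against 0.864 ± 0.28 CPM in fibre2B (adjusted p = 0.038). In both of these genes the groups overlapped, ZNF777 through fibre1 pig 12 at 5.95 CPM and fibre2B pig 11 at 6.02 CPM.

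The other 5 genes called higher had smaller fold changes. ZNF598, a ubiquitin ligase that marks collided ribosomes and not a DNA-binding regulator, had 11.2 ± 2.88 CPM in fibre1 pigs, against 6.05 ± 0.80 CPM in fibre2B pigs (0.88 ± 0.21, edgeR adjusted p = 0.025). ZNF358 had 121 ± 34.2 CPM in fibre1 against 66.5 ± 14.7 CPM in fibre2B (0.87 ± 0.22, adjusted p = 0.033), and its highest fibre1 pigs were pig 6 at 168 CPM and pig 5 at 162 CPM. ZNF205, which carries a KRAB domain, had 22.1 ± 5.59 CPM in fibre1 against 12.6 ± 2.90 CPM in fibre2B (0.81 ± 0.21, adjusted p = 0.035). Its lowest fibre1 value and highest fibre2B value were both 16.9 CPM. ZNF609 has a circular transcript known from human and mouse myoblasts, and gene counts do not separate it from the linear form. It had 6.13 ± 1.36 CPM in fibre1 against 3.56 ± 0.46 CPM in fibre2B (0.78 ± 0.19, adjusted p = 0.030). ZNF629 had 15.1 ± 2.81 CPM in fibre1 against 9.39 ± 2.10 CPM in fibre2B (0.68 ± 0.18, adjusted p = 0.038). There fibre2B pig 10, at 12.5 CPM, was above fibre1 pigs 7 and 12.

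The 7 ZNF genes lower in fibre1 had between 544 and 1728 counts over all pigs, and counts are not divided by gene length. ZNF280C had 0.570 CPM in the lowest fibre1 pig, pig 5, a median of 1.86 and 2.20 in the highest. The fibre2B pigs had 3.30, 3.64, 5.45 and 3.33 CPM. The groups did not overlap, and the gene fell by 1.16 ± 0.28 on the log2 scale (edgeR adjusted p = 0.029).

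The other 6 are genes whose human proteins carry KRAB domains. ZNF567 fell by 0.93 ± 0.27 (1.75 ± 0.32 CPM in fibre1 against 3.34 ± 1.52 CPM in fibre2B, edgeR adjusted p = 0.048) and ZNF606 by 0.87 ± 0.23 (3.46 ± 0.81 CPM in fibre1 against 6.35 ± 2.07 CPM in fibre2B, adjusted p = 0.035). Both were highest in fibre2B pig 10, at 5.37 and 9.17 CPM. ZNF596 fell by 0.77 ± 0.22 (4.44 ± 1.33 CPM in fibre1 against 7.64 ± 1.57 CPM in fibre2B, adjusted p = 0.043). ZNF527 fell by 0.71 ± 0.19 (3.27 ± 0.67 CPM in fibre1 against 5.39 ± 0.87 CPM in fibre2B, adjusted p = 0.038), and its groups did not overlap. ZNF354B fell by 0.69 ± 0.20 (3.22 ± 0.76 CPM in fibre1 against 5.23 ± 0.96 CPM in fibre2B, adjusted p = 0.048). ZNF197, a protein that binds the VHL tumour suppressor, fell by 0.63 ± 0.16 (6.24 ± 1.06 CPM in fibre1 against 9.63 ± 1.54 CPM in fibre2B, adjusted p = 0.034). ZNF567 lay at 1.73 CPM in fibre2B pig 11, inside the fibre1 range of 1.42 to 2.39 CPM.

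**Figure D3:**
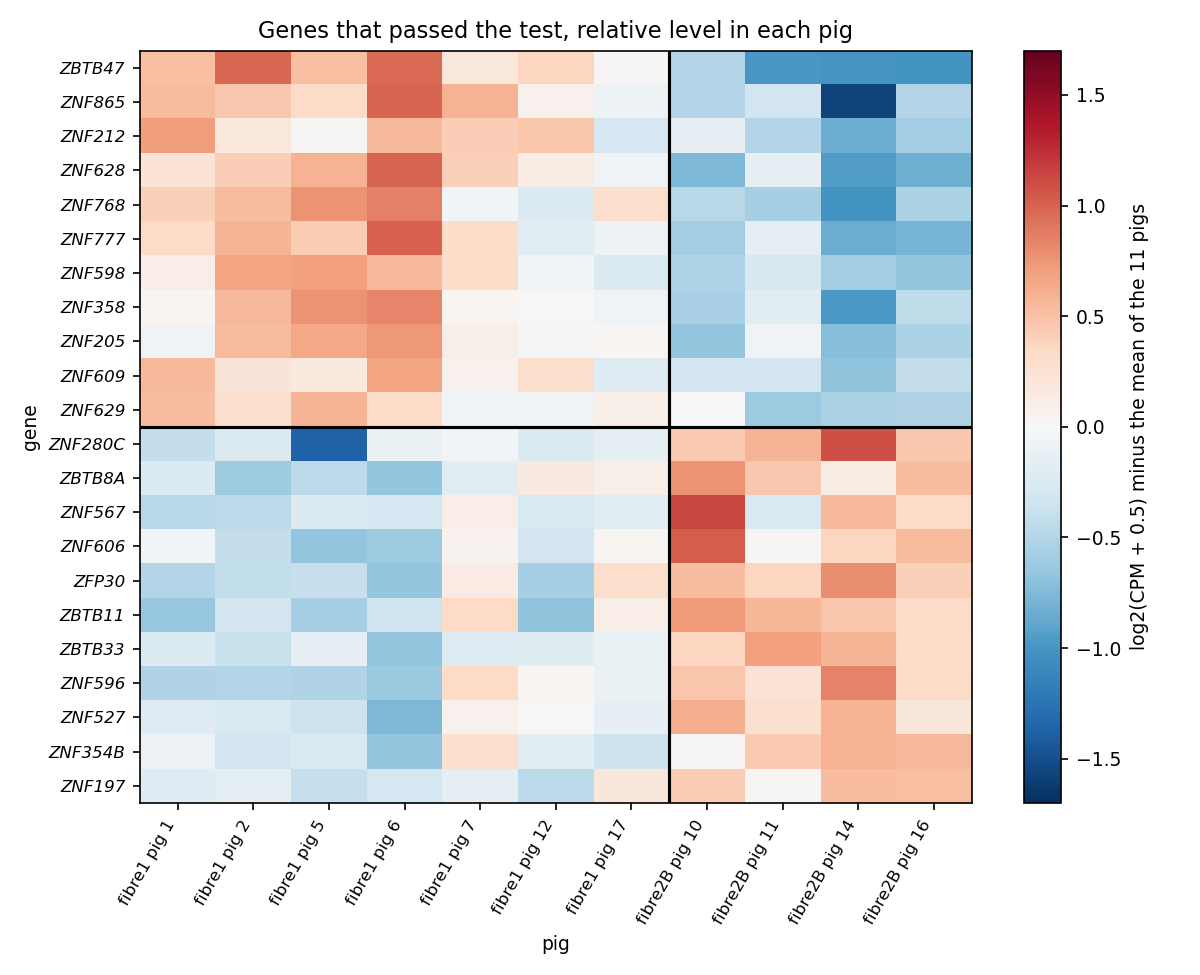
Colours give log2(CPM + 0.5) minus the mean of the 11 pigs for the 22 genes that passed, with fibre1 pigs left of the line and genes higher in fibre1 above it. The contrast itself chose the genes, so the split into blocks follows from that choice, and the picture shows how pigs differ within a group: fibre1 pigs 7, 12 and 17 are paler than pigs 2, 5 and 6.

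Averaged over genes, the 22 differed between pigs of the same group. The 11 genes higher in fibre1 had mean relative levels from -0.05 (pig 17) to 0.77 (pig 6) on the log2 scale in fibre1 pigs and from -0.89 (pig 14) to -0.38 (pig 11) in fibre2B pigs. The 11 genes lower in fibre1 had mean relative levels from -0.52 (pig 6) to 0.07 (pig 7) in fibre1 pigs and from 0.31 (pig 11) to 0.59 (pigs 10 and 14) in fibre2B pigs. These are descriptions of genes chosen by the group difference. Fibre1 pigs 5 and 6 also stood apart in the makeup of their libraries: the 10 most abundant nuclear genes took 45.2% and 44.1% of their counts, against 29.5% to 36.8% in the other pigs. The part of that share in the fold changes was not tested beyond the fits given below.

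Some ZNF genes are known for roles outside transcription, and apart from ZNF598 those named here did not pass in the main edgeR fit. DESeq2 called ZNF106 and ZNF207. Other edgeR fits called ZNF207: with upper-quartile factors, with the 1 CPM filter, with 1 surrogate variable and without fibre1 pig 17. ZNF106, whose mouse counterpart is an RNA-binding protein needed for motor nerve and muscle upkeep, had the most counts of any member (66317 over all pigs, not divided by gene length). It had 313 ± 57.8 CPM in fibre1 pigs, against 221 ± 40.8 CPM in fibre2B pigs, with fibre1 pig 1 highest at 408 CPM (0.50 ± 0.17, edgeR adjusted p = 0.078). ZNF207, a spindle assembly protein, had 27.5 CPM in fibre1 against 36.7 CPM in fibre2B (-0.42 ± 0.12, adjusted p = 0.051). ZNF622, a ribosome assembly factor, had 25.8 CPM in fibre1 against 24.8 CPM in fibre2B (0.06 ± 0.16, adjusted p = 0.843). ZNF451, a SUMO ligase, had 0.19 ± 0.21, and ZNF346, which binds double-stranded RNA, had -0.03 ± 0.22.

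The ZFP genes had 1 of 9 lower in fibre1 (11.1%), 0 higher and 8 that did not pass, with a median log2 fold change of -0.13 and 7 negative values. Of all genes at the same CPM level, 4.98% were called lower and 4.89% higher, or 9.87% in either direction. ZFP30, a KRAB gene, had 6.82 ± 2.04 CPM in fibre1 pigs, against 12.1 ± 1.76 CPM in fibre2B pigs (-0.83 ± 0.20, edgeR adjusted p = 0.029). Its fibre1 pigs ran from 5.03 to 10.3 CPM with a median of 6.02, and its fibre2B pigs had 12.1, 10.8, 14.6 and 11.0 CPM. The groups did not overlap, though fibre1 pigs 17 and 7 were closer to fibre2B than to the other fibre1 pigs. ZFP1 had -0.58 ± 0.17 (adjusted p = 0.051) and ZFP2 -0.56 ± 0.18 (adjusted p = 0.069), and DESeq2 called both. So did edgeR with 1 surrogate variable.

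ZFP36L1 belongs to another fold, the CCCH proteins that bind AU-rich messenger RNA and start its decay. It had 46.0 ± 19.1 CPM in fibre1 pigs, against 72.6 ± 34.5 CPM in fibre2B pigs (-0.66 ± 0.32, edgeR adjusted p = 0.193), with fibre2B pig 11 highest at 117 CPM and fibre2B pig 10 among the lowest at 33.2 CPM. ZFP36 of the same family had 42 counts, all in fibre1 pig 7, and was listed at 0 in the other 10 pigs. Immediate early genes, with which ZFP36 genes are often induced, had 0 of 12 passing by edgeR, 0 at an unadjusted p under 0.05 and 0 by DESeq2 or limma-voom. By edgeR 9.01% of all 11329 genes tested were called, and 3272 had such an unadjusted p. Their summed level was 94.8 to 2333 CPM over fibre1 pigs, against 353 to 2314 CPM over fibre2B pigs. Their part in the ZFP36L1 values was not tested.

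All 3 ZSCAN members were low and 0 passed, where 9.87% of all genes with at least 1 CPM in 4 pigs were called. ZSCAN31 had 0.982 ± 0.26 CPM over fibre1 pigs, against 1.83 ± 1.04 CPM over fibre2B pigs (-0.88 ± 0.42, edgeR adjusted p = 0.183), ZSCAN12 had -0.33 ± 0.24 and ZSCAN29 0.48 ± 0.30. Fibre2B pig 11 had 0.303 CPM of ZSCAN31 while the other fibre2B pigs had 2.02 to 2.605 CPM. At an unadjusted p under 0.05 the count of ZSCAN genes was also 0, DESeq2 called 0, and edgeR without fibre2B pig 11 called ZSCAN31. By edgeR on all pigs, 3272 of the 11329 genes tested had an unadjusted p under 0.05.

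The 91 genes with a matching prefix that were not members were below the CPM level. Of these, 32 had enough counts to be tested, and 59 did not, 4 of which were at 0 in every pig. Among the 32, ZNF710 was called higher in fibre1 (0.702 CPM in fibre1 against 0.286 CPM in fibre2B, 1.29, edgeR adjusted p = 0.029) and 31 did not pass, including ZBTB16, which encodes PLZF (0.12, adjusted p = 0.866), and ZBTB20 (-0.42, adjusted p = 0.429). That 1 call is 3.12% of the 32, under the 4.38% of all genes tested that were called higher. The members nearest the limit had 1.09 (ZNF180), 1.10 (ZNF787) and 1.13 CPM (ZNF624) in their fourth-highest pig, and the closest genes outside had 0.925 (ZNF652), 0.913 (ZNF502) and 0.907 CPM (ZNF575). ZNF787 met the level through fibre1 pigs only and ZNF624 through fibre2B pigs only, so their inclusion depends on the difference itself. Neither passed in the main edgeR fit (ZNF787 0.75, adjusted p = 0.104, and ZNF624 -1.17, adjusted p = 0.069). ZNF624 was called lower in fibre1 by DESeq2, by limma-voom with quality weights, with 1 surrogate variable and by edgeR without fibre1 pig 12.

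The groups did not overlap in 10 of the 132 members with fibre1 above and in 6 of the 132 with fibre2B above. Among all genes at the same CPM level, 3.73% and 4.41% had no overlap in those directions. The share of members with fibre2B above was close to that of all genes. The non-overlapping members that did not pass in the main edgeR fit were ZNF174 and ZNF335 with fibre1 above, and ZNF558 and ZNF624 with fibre2B above, each with an adjusted p between 0.058 and 0.086. ZNF624 met the CPM level through fibre2B pigs only, so its place among the 6 depends on the difference itself.

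Zinc finger genes often lie in clusters. By symbol, 120 of the 132 members were found in the RefSeq annotation of Sscrofa11.1, used here for gene order only, and 42 of them had another gene of these prefixes as a direct protein-coding neighbour. Members formed 10 neighbouring pairs, and the sign of the fold change matched in 8. Pairs within a run share genes and are not independent, and the share of matching signs among other neighbouring genes was not computed. In the run ZNF382, ZNF529, ZNF260 and ZNF566 all 4 values were negative (-0.53, -0.70, -0.25 and -0.49) and 0 passed. ZNF383 and ZNF527 had -0.13 and -0.71, ZNF213 and ZNF205 0.56 and 0.81, and ZNF524 and ZNF865 0.27 and 1.34. In 0 of the 10 pairs did both genes pass, and reads shared between similar neighbours cannot be separated in gene counts.

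The partners through which these proteins act were described as lists. Of 14 tested genes of the KRAB corepressor and heterochromatin list, 2 were higher and 0 lower in fibre1 (14.3% called, where 9.01% of all genes tested were called), with a median of -0.02. CHD3 had 12.3 ± 3.16 CPM in fibre1 pigs, against 5.23 ± 0.97 CPM in fibre2B pigs (1.23 ± 0.22, edgeR adjusted p = 0.016), and CHD4 had 37.4 ± 8.81 CPM in fibre1 against 22.4 ± 4.77 CPM in fibre2B (0.73 ± 0.20, adjusted p = 0.040). Both are helicases of the NuRD remodelling complex. ATRX had -0.64 ± 0.19 (adjusted p = 0.053). CHD3 lost its call in the single fit without pig 14 (1.145, adjusted p = 0.059). CHD4 lost its call in 7 of the 11 fits, those without pigs 1, 2, 5, 6, 10, 14 and 16, where its adjusted p was 0.064 to 0.129. DESeq2 called 5 genes of the list and plain limma-voom 2. TRIM28, the direct KRAB partner, was not analysed here.

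Of 16 tested BTB corepressor and CUL3 partner genes, 0 passed with edgeR (median 0.24), 3 had an unadjusted p under 0.05, and DESeq2 and limma-voom called 0. Of all 11329 genes tested, edgeR called 9.01%, and 3272 had an unadjusted p under 0.05. The smallest p were those of NCOR1 (0.59 ± 0.24, edgeR adjusted p = 0.122), SIN3B (0.62 ± 0.27, adjusted p = 0.142) and BCORL1 (0.84 ± 0.38, adjusted p = 0.160). Of 20 genes of the CCR4-NOT and messenger RNA decay list, 0 passed with edgeR (median -0.19), 5 had an unadjusted p under 0.05, and DESeq2 called 1 and limma-voom with quality weights 2, with PAN3 at -0.52, EDC3 at 0.48 and CNOT3 at 0.41. IER3 (0.53), NR4A3 (-0.99) and EGR2 (-0.60) had the smallest p of the immediate early list.

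Other C2H2 factors, outside the prefixes, had 2 higher and 1 lower of 43 tested (median 0.20), and this 6.98% is under the 9.01% of all genes tested that were called. MAZ, which binds GC-rich promoters, had 164 ± 40.0 CPM in fibre1 pigs, against 79.6 ± 12.8 CPM in fibre2B pigs (1.04 ± 0.20, edgeR adjusted p = 0.016). KLF16 had 10.8 ± 1.95 CPM in fibre1 against 5.86 ± 0.52 CPM in fibre2B (0.88 ± 0.16, adjusted p = 0.016). KLF9, a glucocorticoid-induced factor, had 37.0 ± 10.4 CPM in fibre1 against 58.6 ± 8.03 CPM in fibre2B (-0.66 ± 0.19, adjusted p = 0.046). Of the 11 fits that left out a pig, MAZ (0.96, adjusted p = 0.064) and KLF16 (0.86, adjusted p = 0.060) lost their calls in the fit without pig 14 alone. KLF9 kept its call without fibre1 pig 7 or 12 and lost it without any other pig (adjusted p from 0.057 to 0.146).

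Libraries held 18369053 to 36374829 counts in the fibre1 group, against 14832736 to 22145667 in the fibre2B group. Skeletal muscle marker genes, ACTA1 and TNNC2 among them, summed to between 145642 and 300371 CPM over fibre1 pigs, against between 141066 and 166505 CPM in fibre2B, and 0 of 5 passed with edgeR. Slow-fibre markers summed to between 7316 and 26047 CPM over fibre1 pigs, against between 2342 and 9125 CPM over fibre2B pigs, with 5 of 5 positive values and 0 passing. At an unadjusted p under 0.05 these lists held 1 and 2 genes, and DESeq2 called 1 in each. Beside these and the lists below, 3272 of all 11329 genes tested had such an unadjusted p by edgeR. Fibroblast markers summed to between 475 and 987 CPM over fibre1 pigs, against between 750 and 1448 CPM in fibre2B, with 2 of 6 lower in fibre1 (DCN and LUM) and all 6 values negative. Immune markers summed to between 6.41 and 22.4 CPM over fibre1 pigs, against between 14.7 and 36.7 CPM over fibre2B pigs (0 of 7 passed with edgeR and DESeq2, 2 at an unadjusted p under 0.05). In the endothelial list (7 tested) edgeR called 0, with 3 at an unadjusted p under 0.05 and 3 called by DESeq2, and in the nerve list (2 tested) all of these counts were 0. By edgeR 1 marker was lower in fibre1 in each of the smooth muscle and pericyte (9), adipocyte (6), red blood cell (2) and satellite cell (4) lists. Of all genes tested, 4.63% were called lower. The signs in these lists were mixed or negative: 6 of 9 values were positive in smooth muscle and pericyte (median 0.23) and 3 of 6 in adipocyte (median 0.002). In red blood cell 0 of 2 were positive (median -1.20) and in satellite cell 1 of 4 (median -0.64). In the 10 marker lists, 0 of the genes found were at 0 in every pig. The part of these cells in the zinc finger values was not tested.

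Many calls were lost when a single pig was left out. Without fibre2B pig 14, the pig with the fewest counts, edgeR called 0 of the 132 members (46 at an unadjusted p under 0.05) and 0 of all genes, and the 22 genes had adjusted p from 0.057 to 0.154. With all pigs 54 members had such an unadjusted p, and the count over all genes without pig 14 was not made. Without that pig, DESeq2 called 18 members (13.6%), limma-voom with quality weights 23 (17.4%) and plain limma-voom 0. Of all genes, those fits called 6.73%, 9.49% and 0.026% in that order. Leaving out fibre1 pig 1, 2, 5 or 6 gave 8, 4, 9 and 8 called members in that order, which is 6.06%, 3.03%, 6.82% and 6.06% of the members, while 4.08%, 2.82%, 4.03% and 4.25% of all genes were called. Leaving out fibre2B pig 10 or 16 gave 6 and 3 members (4.55% and 2.27%, beside 2.82% and 2.59% of all genes). Leaving out fibre1 pig 12 gave 31 members (23.5%, beside 13.9% of all genes). The counts over all genes moved in the same direction as those of the members in each of these fits. In each of these fits all 22 genes kept their sign, which is no independent support because the other pigs were used again. ZBTB47, ZBTB33 and ZNF768 lost their calls in the leave-out of pig 14 alone, and ZNF628 in those of pigs 14 and 16. The other 18 genes lost theirs in at least 4 of the 11 leave-outs. Without both fibre1 pigs 5 and 6, ZBTB47 was the only member called (1.32, edgeR adjusted p = 0.040), followed by ZBTB33 (-0.77) and ZNF280C (-1.04), each with an adjusted p of 0.0502. Of all genes, 0.249% were called in that fit.

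**Figure D4:**
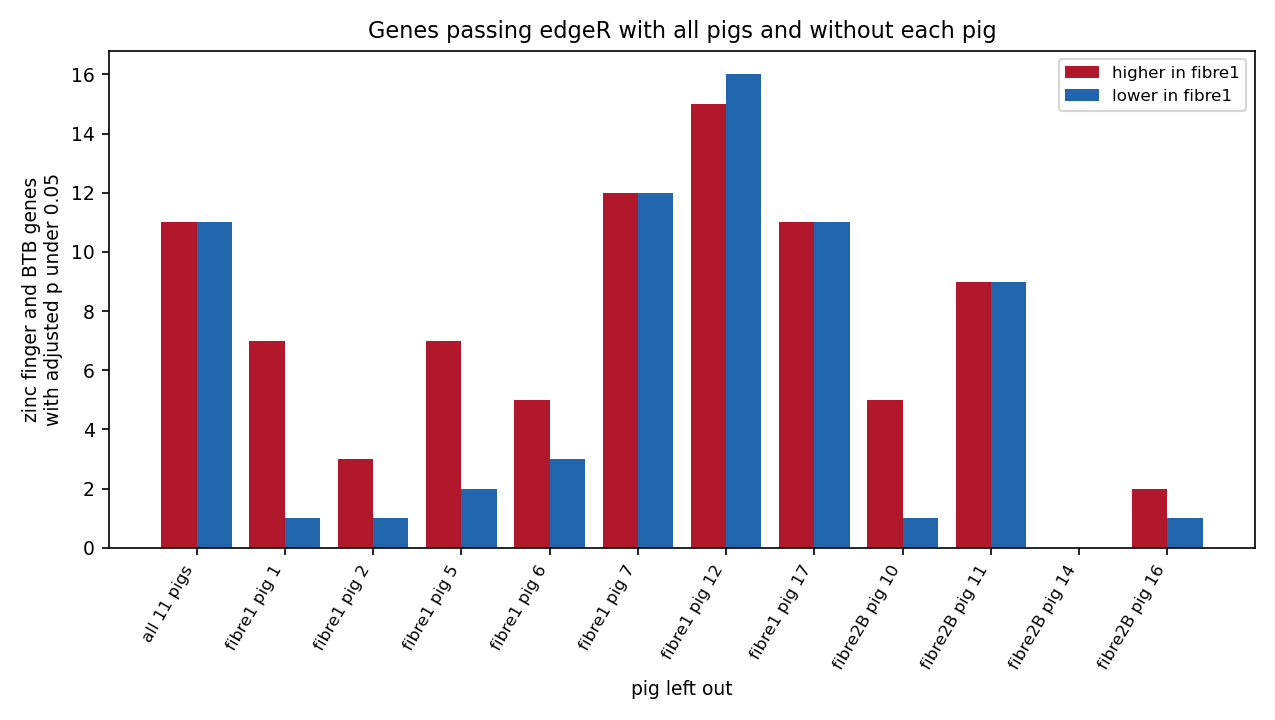
Bars count the members with an edgeR adjusted p under 0.05, higher (red) and lower (blue) in fibre1, with all 11 pigs and without each pig. The counts are 11 and 11 with all pigs, 0 and 0 without fibre2B pig 14, and 15 and 16 without fibre1 pig 12. Of all genes, those fits called 9.01%, 0% and 13.9% in that order.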

How the data were processed

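The deposited values are expected counts per gene (estimated read counts, not normalized), given without decimals in 1 column per pig, so rounding them changed nothing. The submitters' processing notes name CASAVA 1.8.2, FastQC, STAR, RSEM, edgeR, DESeq2 and the build Sscrofa10.2, with no roles. Per the labels, TruSeq libraries came from 300 ng of total RNA, and the design text names 50 single-end cycles in 5 technical repetitions. Columns were joined to pigs by the number in the title, and no number occurs in both groups. Strand handling is not given in the sources used here, so overlapping genes cannot be told apart, and genes with similar finger repeats have uncertain counts. Of the members, 0 had counts identical to another ID.

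The test was edgeR 4.0.16 under R 4.3.3 (TMM factors, filterByExpr on group, quasi-likelihood F test, no covariate), with Benjamini-Hochberg adjustment over all 11329 genes tested and a threshold of 0.05. Printed CPM are TMM-normalised, and the 1 CPM level used column totals. Each SE was derived from the F statistic and the log2 fold change. The scripts were tested on simulated data with 200 changed genes. At the same threshold 15.3% of the DESeq2 calls there were false, against 5.04% of the edgeR calls. These shares hold for that number of changed genes and do not carry over to the real data. With no gene changed, DESeq2 called 4 genes and edgeR 0. Alternatives used DESeq2 1.42.0, limma 3.58.1, sva 3.50.0, other scaling factors and filters, and fewer pigs.

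The members and the lists were chosen with earlier results of these data known. Named genes were ZBTB47, called members (in ZNF up to 10 in each direction), the 3 with the smallest p in classes with fewer calls, the 5 members with the most counts, and 3 genes of each partner list. Others are named after their values were seen. A planned count of fingers per protein was not run, and isoforms were not used here.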

Additional observations from a re-analysis of the deposited data

Results flagged for a closer look

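In 44 named genes, each group was checked for a pig far from the others on the log2 scale, and 7 of 88 groups had one. Chance gives about 1 in 20. In fibre2B, ZBTB47 was highest in pig 10 at 41.0 CPM (next 29.0 CPM) and ZNF629 was highest in the same pig at 12.5 CPM (next 8.60 CPM). Pig 14 was the lowest of the group in ZNF865 at 0.454 CPM (next 1.51 CPM) and in ZNF768 at 34.5 CPM (next 47.3 CPM). Pig 11 was the lowest in ZSCAN31 at 0.303 CPM (next 2.02 CPM) and the highest in SIN3B at 2.34 CPM (next 1.51 CPM). In fibre1, ZNF280C was lowest in pig 5 at 0.570 CPM (next 1.61 CPM).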

How the results depend on the processing

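Leaving out each pig in turn gave 0 to 15 members higher and 0 to 16 lower in fibre1, 0 to 24 ZNF, 0 to 5 ZBTB, 0 to 2 ZFP and 0 to 1 ZSCAN or ZKSCAN genes called, against 11, 11, 17, 4, 1 and 0 with all pigs. Of all genes, those fits called 0 to 7.21% higher and 0 to 6.69% lower, against 4.38% and 4.63% with all pigs. With library size only, where the median of all genes was -0.19, 2 members were higher and 1 lower, with 1 ZNF, 2 ZBTB and 0 ZFP genes called (ZBTB33, ZBTB47 and ZNF768). That fit called 0.468% of all genes higher and 0.918% lower. With a covariate for how much of each library the top 10 genes took, 8 were higher and 2 lower, with 6 ZNF and 0 ZFP genes. The covariate fit called 2.27% of all genes higher and 1.79% lower. DESeq2 called 19 higher, 8 ZBTB and 3 ZFP genes. Quality weights gave 18 higher and 20 lower, 29 ZNF and 3 ZFP genes, and 1 surrogate variable 20 lower, 8 ZBTB and 3 ZFP genes. Calls over all genes rose too, to 15.4% with DESeq2, 15.4% with quality weights and 13% with the surrogate variable, where 9.01% were called by the edgeR fit on all pigs. With no filter 6 were lower (4.55%, beside 2.16% of all genes). ZFP genes numbered 2 with the 1 CPM filter and 2 with RLE factors, where 11% and 9.16% of all genes were called. Without both fibre1 pigs 5 and 6 the counts were 1 higher, 0 lower, 0 ZNF, 1 ZBTB and 0 ZFP. Of all genes, 0.16% were called higher and 0.0889% lower there. Without pig 14, plain limma-voom gave 0 in every class and direction (0.026% of all genes called), and DESeq2 gave 7 lower (5.3%, beside 3.02% of all genes). The causes were not tested. Upper-quartile factors, robust dispersion and plain limma-voom kept every count within 1.5 times. Among the 44 named genes, EGR2 changed sign without fibre2B pig 11 (0.16, with -0.93 the lowest value in the leave-outs) and with quality weights without pig 14 (0.20), neither called, and 0 other genes did. The summed CPM of the members differed by 242 (fibre1 minus fibre2B) with TMM, 253 with RLE factors, 208 with upper-quartile factors and 41.9 with library size only. Sums under scalings other than TMM were added after the data were seen. No paired analysis was possible because the groups share no replicate number. What depth limits was not tested by thinning. The low-count member ZNF567 (544 counts over all pigs) passed with an edgeR adjusted p of 0.048 and kept its call in 3 of the 11 leave-outs, so it does not show what depth limits.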

Other observations

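Genes named here were chosen after their values were seen. ZNF385A had the largest fold change of the members, 1.48 ± 0.93, and did not pass (edgeR adjusted p = 0.309). Fibre1 pig 1 had 46.6 CPM, while the other fibre1 pigs had 1.39 to 8.59 CPM and the fibre2B pigs 8.53, 1.26, 1.42 and 3.02 CPM. ZNF385C, a related gene, had 1.89 CPM in fibre1 against 0.987 CPM in fibre2B on average (0.93 ± 0.32, adjusted p = 0.083), with fibre1 pig 1 also highest at 2.69 CPM.

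ZNF423, known from mouse for commitment of fat cell precursors, averaged 1.04 CPM in fibre1 pigs, against 0.661 CPM in fibre2B pigs (0.64 ± 0.47, adjusted p = 0.386). ZNF185, which encodes a LIM-domain protein of the actin skeleton, was listed at 0 in fibre1 pig 7 and fibre2B pig 11 and reached 2.30 CPM in fibre1 pig 2.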
